A study of Mus musculus with 37 samples.

Results

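Polyamine and arginine metabolism was followed through 8 genes, Odc1, Amd1, Srm, Sms, Sat1, Arg2, Oat and Ass1, which were picked by symbol out of the 31533 genes listed in the 3 count tables of the series. Earlier results of the same tables were known when the 8 genes were picked. Their fold changes, counts and adjusted p-values therefore describe each gene and give no independent support for a change of the pathway. The study asked how vasoactive intestinal peptide (VIP), a neuropeptide released by neurons of the gut wall, acts on the epithelium of the mouse small intestine, and whether it changes the response to irradiation. Jejunal organoids, which are cultures of epithelium without the neurons, connective tissue or immune cells of the gut wall, were grown from adult male and female mice aged 6 to 12 weeks.

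Messenger RNA was counted with unique molecular identifiers (UMIs, 1 count for each captured molecule) in 31 samples from 12 mice. Whole organoids from C57Bl/6 mice were left untreated (n = 3 mice) or received 100 nM VIP for 72 h (n = 4). Lgr5-EGFP+ cells, sorted from organoids of Lgr5-EGFP-IRES-CreERT2 mice in which the Lgr5 locus drives the green reporter, were untreated or given 100 nM VIP for 72 h (n = 4 each, the same 4 mice). In the irradiation experiment, Lgr5-EGFP+ cells of another 4 mice with this allele were untreated, treated with 100 nM VIP for 48 h, irradiated with 6 Gy, or irradiated and treated with VIP (n = 4 each, the same 4 mice). All Lgr5-EGFP+ groups, controls included, carry the reporter allele, and the sort keeps only cells in which it is bright enough to pass the gate.

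As background, polyamines are small positively charged molecules that dividing cells, such as those of the intestinal crypt, make in quantity. Arginase converts arginine into ornithine, ornithine decarboxylase turns ornithine into putrescine, and the spermidine and spermine synthases lengthen it with an aminopropyl group that comes from decarboxylated S-adenosylmethionine. Acetylation marks spermidine and spermine for breakdown or export. In the small intestine, ornithine is also made from glutamine and proline and passed on to citrulline, from which argininosuccinate synthase begins the way back to arginine.

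The total count ran from 3722716 to 6330404 UMIs in whole organoids, from 575242 to 1104126 in sorted cells at 72 h and from 1075715 to 1876729 in the irradiation experiment. One library stood apart from its label. In the second of the 2 technical replicate libraries of VIP-treated mouse 3 in whole organoids, Clca1, a goblet cell gene that was called higher with VIP in whole organoids, stood at 52.3 CPM by library size alone (CPM, the usual counts-per-million unit), against 325 in the first library of the same sample and 40.2 to 60.9 in the control libraries. Control mouse 3 has 1 library and VIP-treated mouse 4 has no control sample, so with mouse as a block mouse 4 takes no part in the VIP difference. The 6 stem cell markers examined were all detected in every sorted group, at a sum of 2425 to 7019 CPM. That sum was 1956 to 4573 CPM in whole organoids and 2425 to 3654 in irradiated sorted cells, so it does not show enrichment of the latter. These experiments were not tested against each other. Of the p53 target genes, 6 of 6 rose with irradiation in both untreated and VIP-treated cells. Mesenchymal and immune markers, 6 genes in all, summed to at most 74.7 CPM in any sample. The sorted cells also held Paneth cell markers, at a sum of 3956 to 28388 CPM, set beside 11515 to 21963 in whole organoids. Their enteroendocrine markers summed to 250 to 4607 CPM, set beside 489 to 680 in whole organoids.

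For 4 of the 8 members the 3′ end of the transcript is not fully its own, judged by the 65-base words in its last 500 bases (GENCODE release M21, GRCm38). Amd1 (chromosome 10, 40287458 to 40302186, minus strand) shared 98.6% of these words with its copy Amd2. Arg2 (chromosome 12, 79130777 to 79156301, plus strand) shared 50.7% with Vti1b, which ends over it on the opposite strand, and it is not stated whether the authors' counting used strand. The share was 22.9% for Ass1 (chromosome 2, 31470207 to 31520672, plus strand), through Gm5424, and 14.9% for Odc1 (chromosome 12, 17544794 to 17551505, plus strand), through 4 genes similar in sequence. It was 0% for Srm (chromosome 4, 148591503 to 148594993, plus strand), Sms (chromosome X, 157443855 to 157492287, minus strand), Sat1 (chromosome X, 155213132 to 155216449, minus strand) and Oat (chromosome 7, 132557478 to 132576398, minus strand). By this measure, counts of the first 4 genes are less certain than those of the last 4. The measure does not cover genes that overlap a member in position on the same strand. Oat overlaps the protein-coding gene Fgfr2 in this way, and Odc1 the small nucleolar RNA gene Gm22748. The effect of these overlaps on the counts was not tested.

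The promoters of Sat1 and Oat are shown because these genes passed the test in both irradiation comparisons, in opposite directions, and that of Ass1 because it holds CACGTG, the E-box bound by Myc. Each runs from 250 bases before to 50 bases after the gene's start (RefSeq, GRCm38.p6), and capitals mark a match to CACGTG or to TGACG, the core of the cyclic AMP response element, on either strand. They lie at chrX:155216400-155216699 on the minus strand (Sat1), chr7:132576349-132576648 on the minus strand (Oat) and chr2:31470020-31470319 on the plus strand (Ass1).
Sat1: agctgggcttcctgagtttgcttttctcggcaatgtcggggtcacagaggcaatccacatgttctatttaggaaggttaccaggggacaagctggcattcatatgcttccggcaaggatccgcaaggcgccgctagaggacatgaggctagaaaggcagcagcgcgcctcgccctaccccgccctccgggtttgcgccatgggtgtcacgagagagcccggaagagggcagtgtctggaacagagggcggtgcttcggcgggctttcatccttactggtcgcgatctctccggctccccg
Oat: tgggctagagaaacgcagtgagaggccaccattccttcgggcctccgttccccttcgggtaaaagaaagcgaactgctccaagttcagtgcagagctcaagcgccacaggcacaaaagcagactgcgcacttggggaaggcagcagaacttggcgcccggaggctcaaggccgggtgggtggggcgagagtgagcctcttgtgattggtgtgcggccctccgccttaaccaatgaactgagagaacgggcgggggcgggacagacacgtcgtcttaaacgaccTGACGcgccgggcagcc
Ass1: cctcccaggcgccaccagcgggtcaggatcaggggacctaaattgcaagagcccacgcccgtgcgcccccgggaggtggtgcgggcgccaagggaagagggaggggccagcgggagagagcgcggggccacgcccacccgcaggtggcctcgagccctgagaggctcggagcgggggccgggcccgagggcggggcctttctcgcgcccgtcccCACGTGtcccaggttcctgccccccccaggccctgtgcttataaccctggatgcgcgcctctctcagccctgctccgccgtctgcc
The Sat1 window holds neither word, the Oat window holds TGACG 33 bases after the start, and the Ass1 window holds CACGTG 36 bases before it. These distances are from the RefSeq starts. By the GENCODE start of Ass1 given above, 31470207, its CACGTG lies inside the gene. Of 32851 promoters of the same length, 7.15% hold CACGTG, 20.8% hold TGACG and 1.79% hold the full element TGACGTCA, which none of the 6 members in the table holds. TGACG was also found in the promoters of Odc1 and Amd1, and CACGTG at 1 of the 2 starts listed for Sms. These matches are descriptions of the sequence.

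Differences were fitted across all genes with edgeR's quasi-likelihood test with mouse as a block, and a gene is called where its Benjamini-Hochberg adjusted p is 0.05 or less. Each ± after a log2 change is a standard error. Levels from here on are CPM after TMM scaling within each experiment, so levels of different experiments were set side by side but not tested. Where nothing says that the cultures of a mouse were handled separately, p-values measure only the spread between these samples.

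In whole organoids, VIP raised Sat1 and lowered Arg2. Both were among the 4.82% of all 12727 tested genes that were called, and the other 6 members were not called. In sorted Lgr5-EGFP+ cells at 72 h, none of the 6 tested members was called by edgeR, 0 of 6 had an unadjusted p below 0.05 and 0 were called by DESeq2, against 0.0885% of 6778 genes called. In the irradiation experiment, VIP lowered Arg2 in non-irradiated cells (1 of 8 members, 0.742% of 9976 genes called) and raised Sat1 in irradiated cells (1 of 8, 0.221%). Irradiation raised Sat1 and lowered Oat both in untreated cells (2 of 8, 4.46%) and in VIP-treated cells (2 of 8, 7.78%). Nothing is read from these shares, since the members were chosen with results of the same comparisons known. The VIP contrasts and the irradiation contrasts of this experiment share samples, so their values are given side by side.

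**Figure D1:**
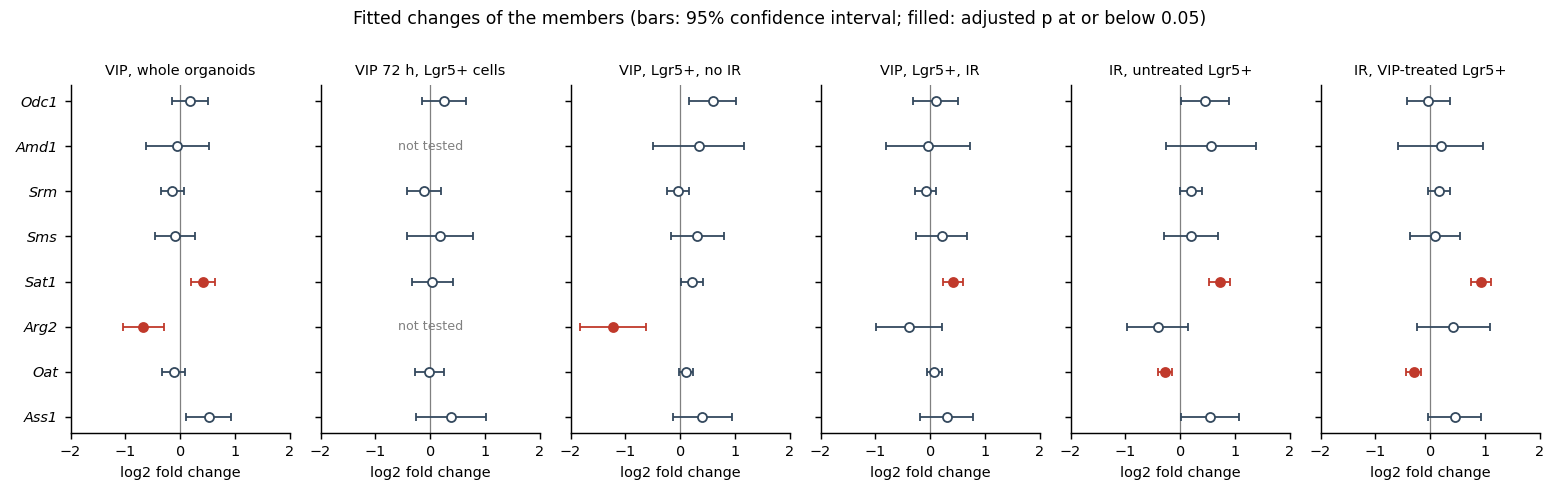
Fitted log2 fold change of each member in 6 comparisons, with the 95% confidence interval as a bar and filled red points for adjusted p at or below 0.05. Sat1 lies to the right of 0 in all 6 panels and is filled in the whole-organoid, irradiated VIP and both irradiation panels. Oat lies at -0.28 and -0.30 in the irradiation panels, and Amd1 and Arg2 were not tested in Lgr5-EGFP+ cells at 72 h.

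Odc1 encodes ornithine decarboxylase, the rate-limiting enzyme of polyamine synthesis. It was not called in any comparison. In whole organoids its level was 24.1, 32.1 and 19.2 CPM in control mice 1 to 3 and 33.7, 27.0, 24.3 and 27.3 in VIP-treated mice 1 to 4. In Lgr5-EGFP+ cells at 72 h it was 62.1, 70.8, 53.2 and 56.4 in controls and 56.1, 88.4, 63.2 and 85.6 after VIP. The groups overlapped in both, with log2 changes of 0.18 ± 0.16 and 0.25 ± 0.20 (95% intervals -0.16 to 0.52 and -0.16 to 0.66).

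For the irradiation experiment, Odc1 stood at 15.1, 18.8, 12.6 and 18.0 CPM in untreated cells of mice 1 to 4 and at 29.1, 18.1, 24.7 and 24.9 with VIP. Irradiated cells had 17.7, 25.8, 24.2 and 19.6 without VIP and 22.4, 19.1, 25.03 and 27.1 with it. Mouse 2 was the one animal whose level was not higher with VIP, in either setting. The VIP change in non-irradiated cells was 0.59 ± 0.21 on the log2 scale (1.505-fold, 95% interval 1.12 to 2.02), with an adjusted p of 0.200 in edgeR's test. The irradiation change was 0.45 ± 0.21 in untreated cells (adjusted p = 0.275, higher in 4 of 4 mice) and -0.03 ± 0.19 in VIP-treated cells (adjusted p = 0.951). The difference between these 2 changes, tested as an interaction, was -0.49 ± 0.29 (adjusted p = 0.857).

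Srm, the spermidine synthase gene, was not called in any comparison. In whole organoids it was at 124, 109 and 186 CPM in controls and at 129, 96.9, 149 and 135 after VIP, and in Lgr5-EGFP+ cells at 72 h at 205, 175, 156 and 154 in controls and 150, 141, 186 and 163 after VIP. The groups overlapped in both. Over the irradiation experiment its 16 values ran from 153 to 223 CPM. Srm was higher after irradiation in 4 of 4 untreated mice, by 0.20 ± 0.10 on the log2 scale (95% interval -0.00 to 0.40), with an adjusted p of 0.311 in edgeR's test. Its VIP changes lay between -0.14 and -0.04, and the interval in non-irradiated cells, -0.24 to 0.16, bounds the change there.

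Sms, which encodes spermine synthase, and Amd1, which encodes the S-adenosylmethionine decarboxylase that supplies the aminopropyl group, were measured less precisely. Sms ran from 11.1 to 14.3 CPM over the 7 whole-organoid samples, from 20.1 to 29.1 over the 8 Lgr5-EGFP+ samples at 72 h and from 11.3 to 23.3 over the 16 samples of the irradiation experiment. Its control and VIP groups overlapped in every comparison, and its log2 changes with VIP lay between -0.09 and 0.31, with a 95% interval of -0.45 to 0.28 in whole organoids and -0.16 to 0.79 in non-irradiated cells. Amd1 was counted 18 to 37 times a sample in whole organoids and 2 to 15 times in sorted cells. In whole organoids it was at 4.75, 3.98 and 5.15 CPM in controls and 3.86, 3.79, 5.95 and 3.50 after VIP, which overlap. At this depth Amd1 changes could not be bounded closely: the 95% interval of its VIP change in non-irradiated cells was -0.50 to 1.17 on the log2 scale. In Lgr5-EGFP+ cells at 72 h Amd1 had 2, 5, 2 and 4 counts in controls and 9, 3, 8 and 10 after VIP, which left it below the filter on low counts and untested. Its copy Amd2 had 0 counts in those 4 controls and 1 to 4 in the VIP samples.

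**Figure D2:**
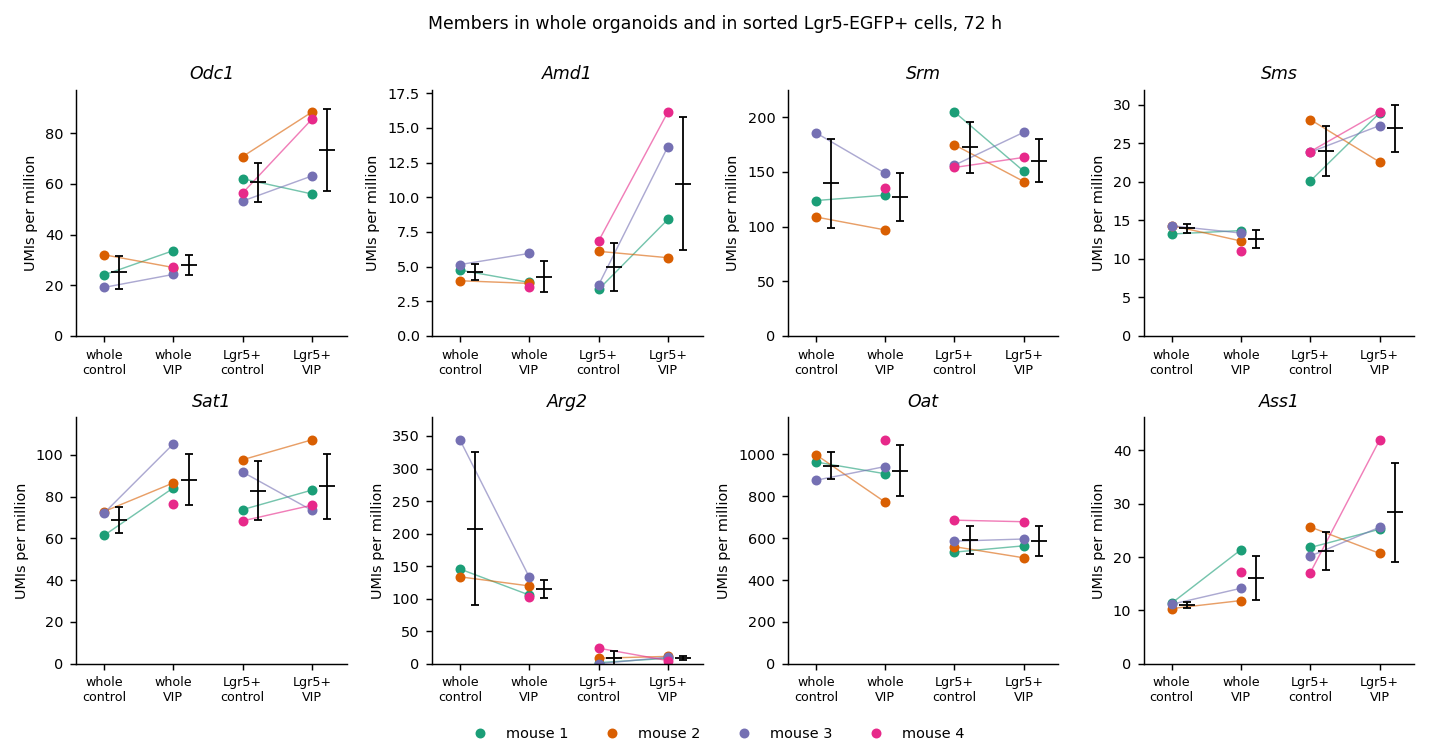
CPM of each member in whole organoids and sorted Lgr5-EGFP+ cells after 72 h, one colour per mouse number within an experiment, lines joining samples of one mouse, and black marks for the mean with its SD. Sat1 in whole organoids is above every control in all 4 VIP samples, and Arg2 of control mouse 3 stands at 344.

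Sat1 encodes the spermidine/spermine acetyltransferase, the rate-limiting enzyme of polyamine breakdown, and it was called in 4 of the 6 comparisons of VIP or irradiation. In whole organoids Sat1 was at 61.4, 72.9 and 72.1 CPM in control mice 1 to 3 and at 84.2, 86.6, 105 and 76.6 in VIP-treated mice 1 to 4. Every VIP sample was above every control. The rise was 1.33-fold (95% interval 1.14 to 1.55), or 0.41 ± 0.10 on the log2 scale, in 3 of 3 paired mice, with an adjusted p of 0.0320 in edgeR's test. The 2 libraries of VIP-treated mouse 3 differed, at 119 CPM in the first and 78.5 in the second by library size alone. Without the second, whose Clca1 stood at the control level, the change was 0.48 (adjusted p = 0.0104). Without the first it was 0.27 (adjusted p = 0.929), in a fit where 0 of 12748 genes were called. The call was also lost in DESeq2 (adjusted p = 0.309), with library sizes alone (0.0549), without mouse 1 (0.297) and without the mouse block that pairs the samples (0.479).

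Marker genes of other cell types moved with VIP in the same samples. Of 7 goblet cell markers, 6 were called higher, with summed levels of 2210 to 2672 CPM in controls and 3787 to 4204 after VIP, while the summed 8 enterocyte markers were at 16134 to 17286 and 12914 to 15580. Of these 8, 1 was called higher and 2 lower, and 4 had a positive log2 change. Of 6 genes of handling stress, 4 were called higher (Fos, Egr1, Hspa1a and Hspa1b), with summed levels of 126 to 182 in controls and 134 to 172 after VIP. All 6 p53 target genes had positive log2 changes, 4 of them with an unadjusted p below 0.05 in edgeR's test. Cdkn1a was called higher, and the 6 genes summed to 296 to 382 CPM in controls and 353 to 644 after VIP. The part of all these markers and genes in the changes of Sat1 and Arg2 was not tested. In bulk samples, fewer cells of a type and less RNA per cell cannot be told apart.

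In Lgr5-EGFP+ cells at 72 h, Sat1 was at 73.8, 97.7, 91.8 and 68.4 CPM in controls and at 83.2, 107, 73.4 and 75.9 after VIP. The groups overlapped, and Sat1 was lower with VIP in mouse 3 and higher in the other 3 mice. The change was 0.04 ± 0.18 on the log2 scale (95% interval -0.33 to 0.41, adjusted p = 0.991 in edgeR's test). Tested as an interaction, the VIP change of Sat1 differed between sorted cells and whole organoids by -0.37 ± 0.20 (adjusted p = 0.848). None of the 7 members tested for this interaction was called by edgeR or DESeq2 or had an unadjusted p below 0.05, and 0.147% of 10186 genes were called. DESeq2 gave Sms and Ass1 no adjusted p for it.

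During the irradiation experiment the order of the 4 groups was the same for Sat1 in each mouse. Untreated cells of mice 1 to 4 had 101, 92.6, 105 and 89.2 CPM and VIP-treated cells 119, 107, 108 and 117. Irradiated cells had 141, 167, 162 and 172 without VIP and 180, 225, 223 and 231 with it. None of the 4 ranges overlapped, although the untreated and VIP-treated ranges were separated by less than the spread within either of them. Irradiation raised Sat1 1.65-fold in untreated cells (95% interval 1.44 to 1.89, log2 0.72 ± 0.09, adjusted p = 2.22e-05 in edgeR's test) and 1.90-fold in VIP-treated cells (1.67 to 2.16, log2 0.93 ± 0.09, adjusted p = 1.29e-07). Both rises were seen in 4 of 4 mice and stayed called in every alternative run, DESeq2 and each left-out mouse included.

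VIP raised Sat1 1.33-fold in irradiated cells (95% interval 1.18 to 1.51, log2 0.42 ± 0.09, adjusted p = 0.0323 in edgeR's test), and by 0.35 to 0.45 on the log2 scale in each of the 4 mice. In non-irradiated cells the VIP change was 0.21 ± 0.10 (1.16-fold, 95% interval 1.01 to 1.33, higher in 4 of 4 mice), with an adjusted p of 0.372. The 2 VIP changes were not shown to differ, with an interaction of 0.20 ± 0.13 and an adjusted p of 0.880. No gene of 9976, or 0%, passed the edgeR test of this interaction, 634 had an unadjusted p below 0.05, and DESeq2 called 0. Among the 8 members, 0 had an unadjusted p below 0.05. The call in irradiated cells was lost in DESeq2 (adjusted p = 0.116), without the mouse block (0.0606) and without mouse 2, 3 or 4 (0.0985, 0.362 and 0.294), at log2 changes of 0.40 to 0.42.

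Markers moved with VIP in these irradiated cells too. All 6 Paneth cell markers had negative log2 changes with an unadjusted p below 0.05, though 0 were called, with summed levels of 14651 to 28388 CPM without and 14699 to 16731 with VIP. The summed stem cell markers were at 2425 to 2830 without and 3030 to 3654 with VIP, with Olfm4 called higher. The summed enterocyte markers were at 2010 to 3610 and 1720 to 1946, with Fabp1 called lower. The summed goblet cell markers were at 2716 to 3802 and 2212 to 3092, with Fcgbp called lower. A positive log2 change was seen in 6 of 6 stem cell, 1 of 7 tested enterocyte and 2 of 7 goblet cell markers. The part of these markers in the VIP change of Sat1 was not tested.

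Cell type markers moved with irradiation as well. All 6 Paneth cell markers were called higher in both irradiation comparisons, with summed levels of 10041 to 14659 CPM in untreated and 14651 to 28388 in irradiated cells, and of 8547 to 9832 and 14699 to 16731 in their VIP-treated counterparts. The summed 5 enteroendocrine markers were at 1431 to 1853 before and 2041 to 4576 after irradiation in untreated cells (3 of 5 called higher), and at 998 to 2607 and 2655 to 4607 in VIP-treated cells (5 of 5). The summed 6 stem cell markers were at 3336 to 4408 before and 2425 to 2830 after irradiation in untreated cells. In VIP-treated cells they were at 5207 to 5714 and 3030 to 3654, and Olfm4 and Smoc2 were called lower in both. The stem cell markers did not all fall, since 3 of 6 had a positive log2 change in untreated and 2 of 6 in VIP-treated cells. Goblet cell markers were called higher too, 4 of 7 in untreated and 2 of 7 in VIP-treated cells. The part of these markers in the changes of Sat1 and Oat was not tested.

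**Figure D3:**
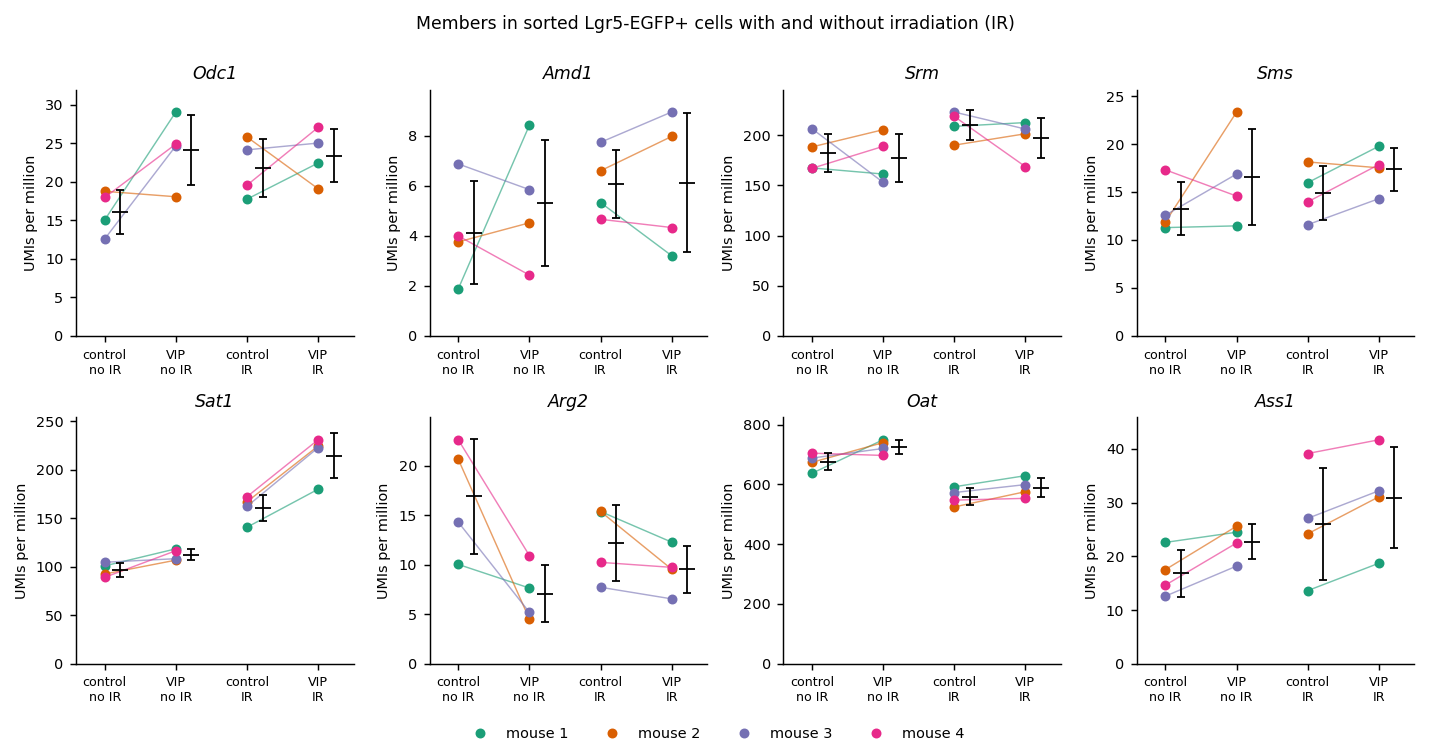
CPM of each member in sorted Lgr5-EGFP+ cells of the irradiation experiment, in 4 groups of 4 mice, one colour per mouse, lines joining the control and VIP sample of a mouse, and black marks for the mean with its SD. Sat1 rises from 89.2 to 105 in untreated cells to 180 to 231 in irradiated VIP-treated cells, and the irradiated Oat samples lie below the non-irradiated ones.

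Oat encodes ornithine aminotransferase, the mitochondrial enzyme that links ornithine with glutamate and proline. In the irradiation experiment Oat was at 637, 674, 688 and 705 CPM in untreated and 750, 740, 720 and 697 in VIP-treated cells of mice 1 to 4. Irradiated cells had 592, 525, 573 and 548 without VIP and 629, 576, 600 and 554 with it. Every irradiated sample was below every non-irradiated sample. Oat fell by 0.28 ± 0.06 on the log2 scale in untreated cells (0.826-fold, 95% interval 0.754 to 0.905, adjusted p = 0.0104 in edgeR's test) and by 0.30 ± 0.06 in VIP-treated cells (0.811-fold, 0.741 to 0.888, adjusted p = 0.00298), in 4 of 4 mice each. The call in VIP-treated cells held in every alternative run. That in untreated cells was lost without mouse 2, 3 or 4 (adjusted p = 0.102, 0.0823 and 0.153), at log2 changes of -0.27 to -0.24.

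VIP changes of Oat were not called in any comparison. In whole organoids it was at 964, 999 and 877 CPM in controls and 908, 772, 942 and 1070 after VIP, and in Lgr5-EGFP+ cells at 72 h at 533, 559, 586 and 686 in controls and 563, 506, 596 and 678 after VIP. The groups overlapped in both. The log2 change was -0.12 ± 0.10 in whole organoids (95% interval -0.33 to 0.09), -0.01 ± 0.13 in sorted cells at 72 h (-0.28 to 0.25), 0.10 ± 0.06 in non-irradiated cells (-0.03 to 0.23) and 0.08 ± 0.06 in irradiated cells (-0.06 to 0.21). The intervals in the irradiation experiment bound any rise at 1.18-fold and 1.16-fold.

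Arg2 encodes the mitochondrial arginase, which makes ornithine from arginine. Its level in whole organoids, 103 to 344 CPM, was set beside 0 to 23.9 in Lgr5-EGFP+ cells at 72 h and 4.52 to 22.6 in the irradiation experiment. In whole organoids controls had 146, 134 and 344 CPM and VIP-treated mice 1 to 4 had 106, 120, 133 and 103. All 4 VIP samples were below the 3 controls, though VIP-treated mouse 3 was within 1 CPM of control mouse 2. Arg2 fell by 0.67 ± 0.17 on the log2 scale (0.628-fold, 95% interval 0.487 to 0.810), in 3 of 3 paired mice, with an adjusted p of 0.0377 in edgeR's test. Without mouse 3, whose control was far above the others, the change was -0.31 (adjusted p = 0.0152). The call was lost in DESeq2 (adjusted p = 0.753), with library sizes alone (0.0829) and without the mouse block (0.386). It was also lost with at least 10 counts asked of every sample (0.0589) and without the first library of VIP-treated mouse 3 (0.711). In the fit without that first library, 0 of 12748 genes were called. Without the second library the change was -0.67 (adjusted p = 0.0264). Vti1b, which overlaps the end of Arg2, was at 185, 183 and 235 in the same controls and 180 to 201 after VIP, highest in control mouse 3 as Arg2 was.

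Arg2 was counted 6 to 34 times a sample in the irradiation experiment. Untreated cells of mice 1 to 4 had 10.04, 20.7, 14.3 and 22.6 CPM and VIP-treated cells 7.65, 4.52, 5.19 and 10.9. The groups overlapped through mouse 1 of the untreated cells and mouse 4 of the VIP-treated ones, but each mouse was lower with VIP. The fall was 1.23 ± 0.29 on the log2 scale (0.427-fold, 95% interval 0.280 to 0.651, adjusted p = 0.0473 in edgeR's test). DESeq2 gave Arg2 no adjusted p there, and the call was lost without the mouse block (adjusted p = 0.0822) and without mouse 2, 3 or 4 (0.251, 0.182 and 0.141). Vti1b was at 202 to 242 in untreated and 180 to 222 in VIP-treated cells, lower with VIP in 4 of 4 mice, with a mean difference of -0.14 on the log2 scale. The summed stem cell markers were at 3336 to 4408 CPM in these untreated and 5207 to 5714 in these VIP-treated cells, with Olfm4 called higher, and the summed enterocyte markers at 1737 to 2199 and 1315 to 1669, with Fabp1 and Fabp2 called lower. All 6 Paneth cell markers had negative log2 changes, 5 of them with an unadjusted p below 0.05 and 0 called, at sums of 10041 to 14659 without and 8547 to 9832 with VIP. The 6 p53 target genes summed to 389 to 539 and 273 to 380, with Cdkn1a called lower. Their part in the change of Arg2 was not tested.

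Irradiated cells had Arg2 at 15.4, 15.4, 7.73 and 10.2 CPM without VIP and 12.3, 9.56, 6.56 and 9.74 with it. The groups overlapped, and the VIP change was -0.40 ± 0.29 (lower in 4 of 4 mice, adjusted p = 0.962 in edgeR's test). Irradiation changed Arg2 by -0.41 ± 0.27 in untreated and 0.42 ± 0.32 in VIP-treated cells, neither of them called. The interaction was 0.83 ± 0.42 with an unadjusted p of 0.0585 and an adjusted p of 0.810. In Lgr5-EGFP+ cells at 72 h Arg2 had 1, 7, 0 and 14 counts in controls and 9, 6, 6 and 3 after VIP, too few for the test, and the count of 0 allows up to 5.51 CPM (3 counts, counting error only).

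Ass1 encodes argininosuccinate synthase, which joins citrulline and aspartate on the way to arginine. In whole organoids Ass1 was at 11.4, 10.4 and 11.2 CPM in controls and 21.4, 11.9, 14.2 and 17.1 in VIP-treated mice 1 to 4. Every VIP sample was above every control. The change was 0.52 ± 0.19 on the log2 scale (1.43-fold, 95% interval 1.08 to 1.90, 3 of 3 paired mice), with an adjusted p of 0.172 in edgeR's test, and it passed in 1 of 4 fits without a mouse. It was 0.60 without mouse 3 (adjusted p = 0.0250) and 0.27 without mouse 1 (adjusted p = 0.868). In Lgr5-EGFP+ cells at 72 h the values were 21.8, 25.6, 20.2 and 17.1 in controls and 25.2, 20.7, 25.6 and 42.0 after VIP, which overlap (0.39 ± 0.31, adjusted p = 0.941).

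Across the irradiation experiment Ass1 was at 22.6, 17.5, 12.6 and 14.6 CPM in untreated and 24.5, 25.6, 18.2 and 22.5 in VIP-treated cells, and at 13.6, 24.2, 27.1 and 39.1 in irradiated and 18.7, 31.1, 32.2 and 41.7 in irradiated VIP-treated cells. Ass1 was higher with VIP in 4 of 4 mice in both settings, by 0.41 ± 0.26 and 0.30 ± 0.23, with adjusted p-values of 0.586 and 0.962. After irradiation it was lower in mouse 1 and higher in the other 3, with and without VIP. The irradiation changes were 0.55 ± 0.26 (adjusted p = 0.275) and 0.44 ± 0.23 (adjusted p = 0.277). Without mouse 1 they were 0.98 (adjusted p = 0.00901) and 0.69 (adjusted p = 0.0390), and without mouse 4 they were 0.25 (adjusted p = 0.825) and 0.26 (adjusted p = 0.682).

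Genes most like each member were taken from the 16 samples of the irradiation experiment after subtracting each mouse's mean, out of 6054 genes at 20 or more CPM. Sat1 was most like Lmna (Pearson r = 0.987), S100a11 (0.974) and S100a6 (0.952). Oat was most like Acat2 (0.967), Insig1 (0.967) and Nsdhl (0.959). The highest r was 0.924 for Ass1 (Abcf2), 0.898 for Arg2 (Plgrkt), 0.889 for Odc1 (Kpna4), 0.859 for Srm (Vps33a), 0.857 for Amd1 (Slc38a1) and 0.801 for Sms (Maip1). Between members, Sat1 and Oat had r = -0.773 and Sat1 and Ass1 0.721. These are descriptions over samples that share 4 conditions, 4 mice and 1 scaling.

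Of 56 other genes of the pathway listed in the tables, 47 were tested in whole organoids, and VIP raised 2 and lowered 4, where 4.82% of all 12727 genes were called, 474 higher and 140 lower. Ddah1, which breaks down methylarginines that inhibit nitric oxide synthases, rose from 33.3 to 46.1 CPM in the 3 controls to 70.9 to 86.3 in the 4 VIP samples (log2 0.95 ± 0.11, adjusted p = 0.000122 in edgeR's test). Slc7a9, the light chain of the renal and intestinal cystine and basic amino acid transporter, rose by 0.49 ± 0.12 (adjusted p = 0.0314). It was the sixth gene by p and is named after its values were seen. The 4 that fell all belong to the 15 tested genes between arginine, ornithine, citrulline and proline: Agmat (-0.66 ± 0.10, adjusted p = 0.00144), Prodh (-0.64 ± 0.13, 0.00976), Aldh18a1 (-0.59 ± 0.13, 0.0199) and Otc (-0.49 ± 0.09, 0.00501). Aldh18a1 makes the proline and ornithine precursor from glutamate, Prodh starts proline breakdown, Otc makes citrulline from ornithine, and Agmat is named for the agmatine it was thought to cleave to putrescine. The number of called genes was 3 without mouse 1, 18 without mouse 3, 13 without the second and 0 without the first library of VIP-treated mouse 3. Over all genes, those fits called 377 of 12824, 1668 of 12993, 1261 of 12684 and 0 of 12748. The median log2 change of the 47 genes was -0.04, against -0.00 over all genes.

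Otc had the smallest p of the other pathway genes in sorted cells at 72 h and in non-irradiated cells too. It went from 138 to 222 CPM in controls to 99.7 to 132 after VIP at 72 h (-0.52 ± 0.16, lower in 4 of 4 mice, adjusted p = 0.489) and from 166 to 176 to 120 to 153 in the non-irradiated cells of the irradiation experiment (-0.29 ± 0.09, lower in 4 of 4 mice, adjusted p = 0.149). The groups did not overlap in either, but Otc was picked by its p in these same comparisons, so nothing is read from that. None of the 34 and 42 other pathway genes tested there was called by edgeR, with 2 and 9 at an unadjusted p below 0.05, and 0 were called by DESeq2 in each. In irradiated cells VIP called 0 of 42, with 3 below 0.05 unadjusted and 0 called by DESeq2. The smallest p there was that of Apip, an enzyme of the methionine salvage that recycles the by-product of spermidine synthesis (0.38 ± 0.11, adjusted p = 0.315).

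Irradiation lowered 2 of the 42 other pathway genes in untreated cells, where 4.46% of all genes were called. Otc fell by 0.61 ± 0.10 (166 to 176 CPM before, 98.7 to 121 after, adjusted p = 0.000218 in edgeR's test) and Nags, which makes the activator of the first step of the urea cycle, by 0.66 ± 0.17 (adjusted p = 0.0233, lower in 3 of 4 mice). In VIP-treated cells, where 7.78% of all genes were called, 4 of 42 fell: Oaz1, the antizyme that targets ornithine decarboxylase for degradation, by 0.27 ± 0.06 (814 to 895 before, 646 to 756 after, adjusted p = 0.00853), Otc by 0.35 ± 0.10 (adjusted p = 0.0222), Pycrl, a proline synthesis enzyme, by 0.32 ± 0.09 (adjusted p = 0.0237) and Agmat by 0.54 ± 0.16 (adjusted p = 0.0309). No other pathway gene was called higher in either, and nothing particular to the pathway is read from these counts. Without mouse 2, 3 or 4 the untreated count was 1, and the VIP-treated count was 0 without mouse 2 and 1 without mouse 3 or 4. Over all genes, those fits called 252, 212 and 176 in untreated cells and 474, 542 and 426 in VIP-treated cells. The 2 interactions called 0 of 42 and 0 of 40 in edgeR and 0 in DESeq2, with 3 and 6 at an unadjusted p below 0.05, and the smallest p was that of Mri1 (0.40 ± 0.15, adjusted p = 0.687) for irradiation and Prodh (0.86 ± 0.31, adjusted p = 0.581) for compartment.

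**Figure D4:**
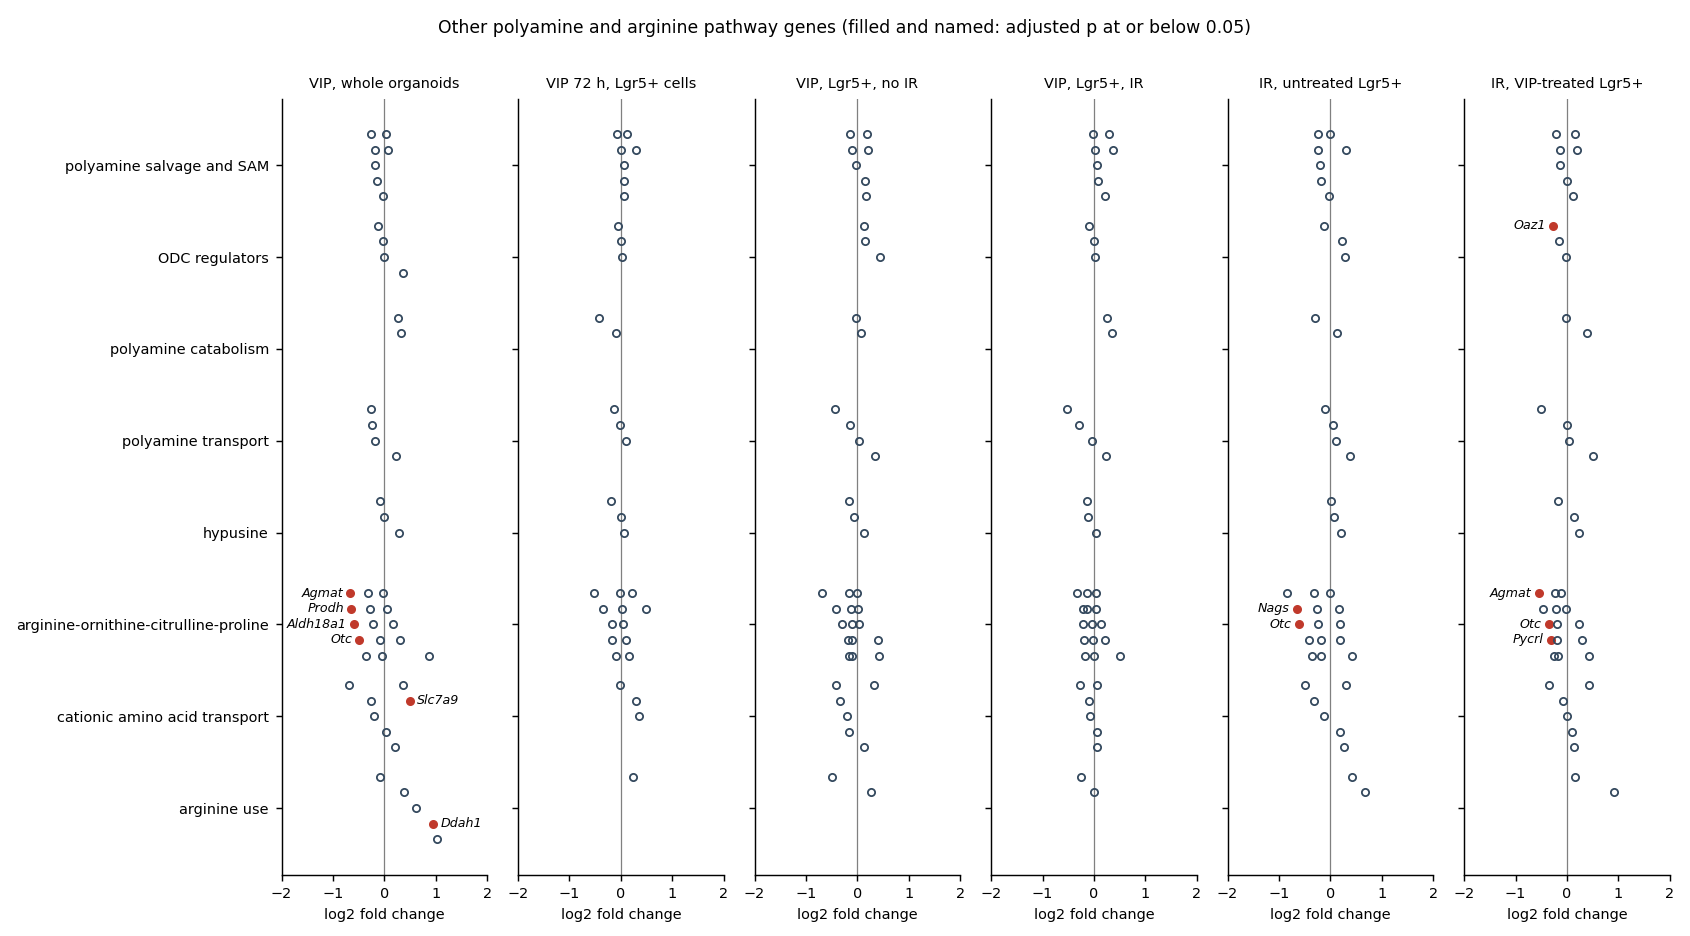
Fitted log2 fold change of the other polyamine and arginine pathway genes by list in 6 comparisons, one point per tested gene, spread vertically within a list for legibility. Filled and named points have an adjusted p at or below 0.05, 6 in whole organoids, 2 and 4 in the irradiation panels, and 0 in the other 3.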

How the data were processed

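The tables the authors deposited hold whole UMI counts for each gene, made from 3′ poly(A) libraries with the Drop-seq pipeline on GRCm38. No normalization had been applied to them. Sequencing used 65-base reads of the cDNA. Groups came from the sample labels, and VIP dose, times, irradiation and ages from the study's methods. Technical replicate libraries of a mouse were summed, which left 31 samples of 37 libraries, and 0 columns lacked a sample. edgeR 4.0.16 (R 4.3.3) was run with TMM scaling, its expression filter, a mouse block and the quasi-likelihood test with Benjamini-Hochberg adjustment over all tested genes, separately in each experiment. The compartment interaction was fitted on whole organoids and sorted cells at 72 h together. Log2 CPM used a prior count of 2. The script was tested on simulated data with known changes, set in genes above a minimum level and without differences between mice. Those changes were larger than any of the members in the reported fits. Recovery of changes of the members' size and depth was therefore not measured.

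Pairing comes from the labels, since same-numbered samples of an experiment are from 1 mouse. As a check, deviations from the group means correlated at 0.52 to 0.80 within and -0.73 to 0.52 between mice in whole organoids. They correlated at 0.04 to 0.23 and -0.17 to 0.18 in sorted cells at 72 h, and at -0.10 to 0.26 and -0.28 to 0.28 in the irradiation experiment. In both sorted-cell experiments the ranges overlapped, so the check did not tell mice apart and the pairing rests on the labels alone. The ranges of whole organoids met at 0.52. The 8 members, the pathway lists and the marker lists were chosen with earlier results of these data known. Which single enterocyte markers were called in whole organoids is not reported here. The text names all 8 members, up to 5 other pathway genes past the threshold by smallest p in each comparison, or otherwise the 1 with the smallest p, and the 3 genes most like a member. Alternatives were DESeq2 1.42.0, other size factors and filters, no mouse block, fits without mitochondrially encoded genes, without each mouse, without single libraries, and fits of the samples compared alone. DESeq2 gave some genes no adjusted p, among them Prodh for the compartment interaction, and these count as not called by it. Leaving out the first library of VIP-treated mouse 3 was added after seeing the data. Total counts set the precision, and no interval covers more than the spread between these samples. Promoters came from the RefSeq table, which matched 6 of 8 members, and Srm and Arg2 had no entry.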

Additional observations from a re-analysis of the deposited data

Results flagged for a closer look

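Of 56 combinations of a member and a group of 4 samples, 2 held a sample apart from the other 3 by Dixon's 95% critical value, which chance alone gives in about 1 of 20 groups. Sat1 of mouse 1 in irradiated VIP-treated cells stood at 180.04 CPM, below 223 to 231 in the other mice. Amd1 of VIP-treated mouse 3 in whole organoids stood at 5.95 CPM, above 3.50 to 3.86, from 37 counts against 19 to 24.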

How the results depend on the processing

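Of 949 gene values under alternatives, 856 kept their direction and their side of the threshold. Another 61 kept the direction but lost the call, 3 gained a call and 29 changed sign. Most of the 949 belong to genes not called in the reported fit, which have no call to lose. Among called members, Sat1 and Arg2 each lost the call in 5 of 14 alternatives in whole organoids. With VIP, Arg2 lost it in 4 of 10 in non-irradiated cells and Sat1 in 5 of 12 in irradiated cells. After irradiation, Sat1 lost it in 0 of 12 in untreated and in VIP-treated cells, and Oat in 3 of 12 and 0 of 12. The causes were not tested.

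Of the members in whole organoids, 2 were called in the reported fit, against 0 in DESeq2 and 0 with library sizes alone. The count was 1 with at least 10 counts in every sample and 0 without the first library of VIP-treated mouse 3. Without each mouse it was 1 to 3. Over all genes, 614 were called in the reported fit, and 300, 511, 501 and 0 in those settings in that order. Without each mouse, 363 to 1668 were called. For VIP in non-irradiated cells the 1 call became 0 in DESeq2 and 0 with at least 10 counts, and 0 to 1 without each mouse. Over all genes, the 74 calls there became 74 and 84, and 32 to 42 without each mouse. In DESeq2 Arg2, the gene of that 1 call, had no adjusted p, at a log2 change of -1.25. The filter of at least 10 counts removed Arg2, so neither setting tested its call. For VIP in irradiated cells the 1 call became 0 in DESeq2 and 0 to 1 without each mouse. Over all genes, the 22 calls there became 12, and 5 to 35 without each mouse. For irradiation of untreated cells the 2 calls became 1 to 3 without each mouse, where the 445 calls over all genes became 176 to 643. Without the mouse block, which pairs the samples, members called were 0 in whole organoids, 0 for VIP in non-irradiated cells and 0 for VIP in irradiated cells. Over all genes, 99, 34 and 12 were called in these fits. The pairing changed no other count of members.

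Of the other pathway genes, the 6 called in whole organoids became 1 without the pairing by mouse and 11 with the first technical replicate library only. They became 13 without the second and 0 without the first library of VIP-treated mouse 3, and 3 to 18 without each mouse. Over all genes, the 614 called became 99, 881, 1261 and 0 in those settings, and 363 to 1668 without each mouse. The 2 called after irradiation of untreated cells became 1 in DESeq2, 1 with the untreated samples alone and 1 to 3 without each mouse. Over all genes, the 445 called became 281, 335 and 176 to 643. The 4 called after irradiation of VIP-treated cells became 1 in DESeq2 and 0 to 4 without each mouse, where the 776 called over all genes became 489 and 426 to 691.

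No called value changed sign. With the first technical replicate library only, the log2 change of Srm in whole organoids was 0.056, and the interaction of VIP and compartment was -0.18 for Odc1 and -0.18 for Srm, which was -0.050 without the second library of VIP-treated mouse 3. With library sizes alone Oat changed by 0.024 in sorted cells at 72 h. Leaving out 1 mouse at a time changed the sign of values that were not called. Some of these were not near 0 in the reported fit. Arg2 stood at 0.79 ± 0.71 for the interaction of VIP and compartment. Amd1 stood at -0.38 ± 0.55 for that of VIP and irradiation and at 0.33 ± 0.41 for VIP in non-irradiated cells. For the VIP effect in whole organoids, the log2 range was Amd1 -0.19 to 0.074 and Oat -0.23 to 0.0065. For the VIP effect in sorted cells at 72 h, the log2 range was Srm -0.24 to 0.0084, Sat1 -0.0059 to 0.15 and Oat -0.045 to 0.028. For the VIP effect in non-irradiated cells, the log2 range was Amd1 -0.20 to 0.63 and Srm -0.12 to 0.089. For the VIP effect in irradiated cells, the log2 range was Odc1 -0.0073 to 0.30, Amd1 -0.15 to 0.13 and Srm -0.15 to 0.0055. For the irradiation effect in VIP-treated cells, the log2 range was Odc1 -0.096 to 0.089, Amd1 -0.00078 to 0.72 and Sms -0.11 to 0.26. For the interaction of VIP and irradiation, the log2 range was Amd1 -0.78 to 0.33, Srm -0.17 to 0.12, Sms -0.35 to 0.22, Oat -0.047 to 0.0069 and Ass1 -0.29 to 0.0028. For the interaction of VIP and compartment, the log2 range was Odc1 -0.20 to 0.37, Srm -0.19 to 0.25, Arg2 -0.024 to 2.13 and Ass1 -0.42 to 0.19.

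Depth limited Amd1 and Arg2 in sorted cells, where single samples held 0 to 34 counts, and the 72 h sorted cells, which had 575242 to 1104126 UMIs and 6778 tested genes, against 12727 in whole organoids.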
